A study of Mus musculus with 24 samples.

Results

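The transcriptome of microglia, the macrophages of the brain, was set beside those of lung alveolar macrophages, liver Kupffer cells and splenic macrophages, all from wildtype mice. The comparison was set by the sample labels alone: 12 libraries of the 24 in the series were taken, 3 from each of the 4 tissues, and the 12 libraries of the Z165KO mice were not used. In every group RNA came from 100000 macrophages sorted out of digested tissue, and it was amplified as cDNA by a method for low input before sequencing. All 4 groups are labelled wildtype, and no treatment, age or strain is given for them in the labels. The labels number the libraries of a tissue 1 to 3 but do not say whether they came from separate animals, so p-values measure only the spread between these libraries, which may be technical.

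Microglia descend from yolk sac progenitors that enter the brain before birth, and they renew themselves there with little input from the blood. Their distinct transcriptional state is known to depend on signals of the brain, foremost TGF-beta and the CSF1R ligand IL-34, and on the zinc-finger factor SALL1, which acts with the macrophage factor PU.1 at microglial enhancers. They sense nucleotides through P2RY12, fractalkine through CX3CR1 and lipids through TREM2, and they are known for clearing synapses and dying cells and for responding to injury.

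Values are given as CPM, each gene's read count scaled to a common library total. Library totals ran from 50704045 to 62984970 reads in the 12 libraries, and those of microglia were 53649966, 52324059 and 50704045. A microglial gene with no read in any of the 3 microglia libraries lay under 0.0191 CPM, the value that 3 reads over the 3 libraries would have, a floor that covers counting error only. The label of the brain libraries was checked against Tmem119, P2ry12 and Sall1. Tmem119, a transmembrane protein of microglia, had 5578, 4768 and 4609 CPM in microglia and 2.23 to 17.4 CPM in the 9 other libraries. P2ry12, the receptor for ADP, had 4402, 5401 and 4775 CPM in microglia, 10.8, 12.3 and 14.3 CPM in alveolar macrophages, 72.8, 108 and 69.4 CPM in Kupffer cells and 53.4, 52.3 and 63.1 CPM in splenic macrophages. Sall1 had 467, 382 and 483 CPM in microglia, and 3 reads in all 9 other libraries together, all in Kupffer cell library 3. All 3 markers were thus far higher in each brain library than in any other, and the label held.

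Microglia library 2 stood apart from the other microglia libraries by transcript length. Among 1668 genes in the bin of shortest exonic length, 53 to 2672 bases, its median difference from the mean of the other 2 microglia libraries was 0.39 on the log2 scale, and among the longest bin, 7987 to 123179 bases, it was -0.36. The same differences were -0.21 and 0.17 for library 1 and -0.19 and 0.21 for library 3. The plot by length bin shows that the 3 lines cross. As each library is set against the mean of the other 2, a shift of library 2 gives libraries 1 and 3 opposite differences by arithmetic. Their trends are thus not separate observations. Library 2 also had 20646 genes with at least 10 reads, against 17220 and 18198 in libraries 1 and 3. The part of this difference in the results was not tested.

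**Figure D1:**
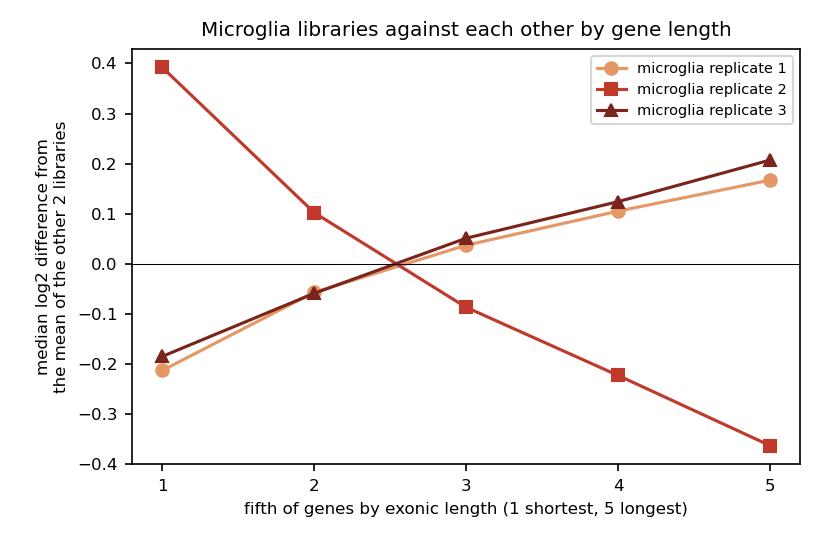
Median log2 difference in CPM of each microglia library from the mean of the other 2, by bin of exonic length (x axis, shortest to longest, 1667 or 1668 genes a bin). Library 2 falls from 0.39 to -0.36, and libraries 1 and 3 go from -0.21 and -0.19 to 0.17 and 0.21. Their opposite direction follows from setting each library against the other 2.

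Against the mean of the other 3 types, microglia had a call at 9089 of the 21679 genes tested (41.9%; adjusted p under 0.05, edgeR quasi-likelihood test on the 12 libraries with Benjamini-Hochberg adjustment). Of these, 4695 genes (21.7%) were higher in microglia and 4394 (20.3%) were lower, and the median log2 fold change of all genes tested was 0.023. These shares are the background against which every gene group is set. A list with close to 21.7% of its genes higher, or 20.3% lower, does not stand out from all genes in that direction. A stricter call asked for a difference from each of the other 3 types in the same direction: 1179 genes (5.44%) were higher in microglia than in each, and 1530 (7.06%) were lower than in each. With a fold of at least 4 against each type as well, 446 genes (2.06%) were higher and 889 (4.1%) were lower, so genes set apart by a large fold were more often lower. Without any test, 2487 genes (11.5%) had all 3 microglia libraries above all 9 others, and 2609 (12%) had them below. Taken pair by pair, microglia were higher than alveolar macrophages at 4201 genes (19.4%) and lower at 4424 (20.4%), higher than Kupffer cells at 3064 (14.1%) and lower at 3961 (18.3%), and higher than splenic macrophages at 3548 (16.4%) and lower at 4027 (18.6%). These 3 comparisons share the microglia libraries. The first principal component of the 12 libraries held 35.2% of the variance, the next 23.4% and the third 17.7%.

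**Figure D2:**
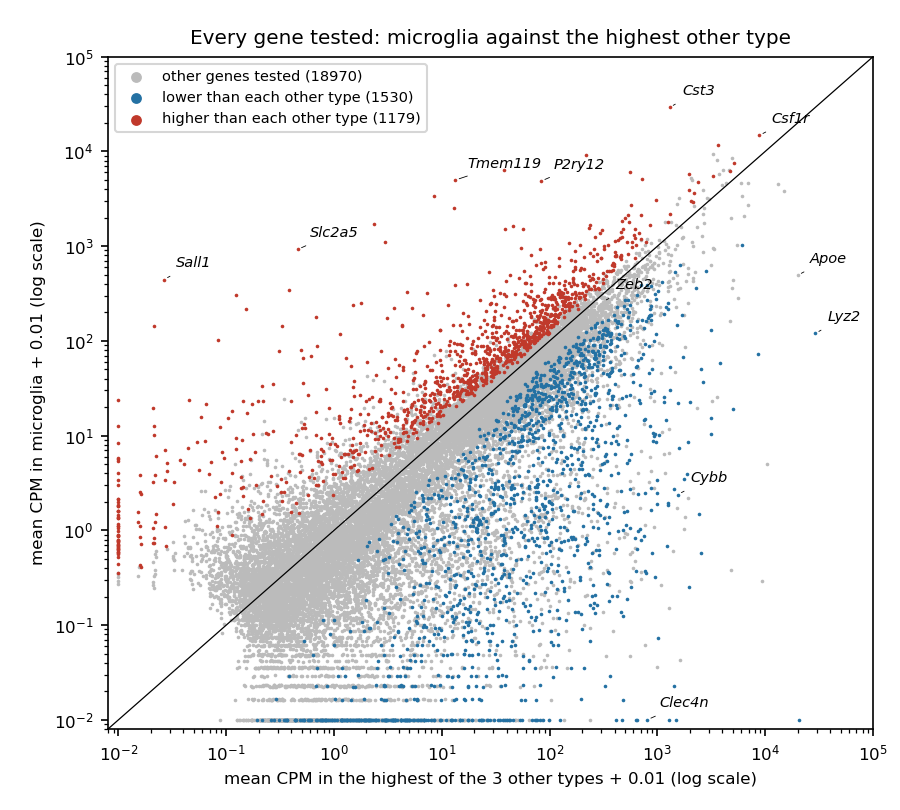
Mean CPM in microglia (y axis) against mean CPM in the highest of the 3 other types (x axis), both on log axes with 0.01 added, for each of the 21679 genes tested. Genes higher than each other type (1179, red) lie above the line of equal level with Sall1, Slc2a5 and Tmem119 at the far edge, genes lower than each (1530, blue) lie under it with Clec4n at the bottom, and Zeb2 lies at the line.

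The 12 genes with the largest folds over the highest other type were Sall1, Sall3, Gpr165, Slc2a5, Nav3, Csmd3, Crybb1, Siglech, Fcrls, Tmem119, Serpine2 and Upk1b, ranked among 629 genes that were higher than each type and had at least 50 CPM in microglia. Sall1 and its relative Sall3 had 3 and 4 reads in the 9 other libraries, too few for a fold: Sall3 had 168, 133 and 131 CPM in microglia. The adjusted p was 9.12e-08 for Sall1 and 1.77e-08 for Sall3. Slc2a5, which encodes the fructose transporter GLUT5, had 1001, 977 and 795 CPM in microglia, 2052-fold over Kupffer cells, where library 1 held all the reads at 1.35 CPM (log2 fold change over the mean of the 3 types 13.99, SE 0.905, adjusted p 5.4e-07). Without that library the log2 fold change was 16.48. Gpr165, an orphan receptor, had 392.2, 144 and 378 CPM in microglia and 20 reads elsewhere, all in alveolar library 1. Microglia library 2 had less than the other 2 for Gpr165 and for Nav3, a long gene for a microtubule-binding protein, at 242, 142 and 266 CPM. Csmd3, which encodes a large membrane protein with complement-control domains, had 110, 75.0 and 119 CPM in microglia, and its reads elsewhere lay in splenic library 2 alone, at 0.219 CPM.

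The remaining genes of that set also separated fully. Siglech, a sialic acid-binding receptor, had 1442, 2174 and 1585 CPM in microglia and at most 2.55 CPM elsewhere (log2 fold change 10.25, SE 0.181, adjusted p 8.02e-11). Fcrls, an Fc receptor-like scavenger receptor, had 3285, 3620 and 3221 CPM in microglia and at most 14.8 CPM elsewhere (12.17, SE 0.404, adjusted p 4.36e-09). Every microglia library was higher than every other library for both. Crybb1, a beta-crystallin first known from the lens, had 332, 427 and 278 CPM, 926-fold over Kupffer cells. Serpine2, a secreted protease inhibitor, had 965, 1211 and 1120 CPM, 371-fold over alveolar macrophages, and Upk1b, a tetraspanin, had 151, 211 and 173 CPM, 267-fold over alveolar macrophages. These folds rested in part on 1 library: Crybb1 was 1527-fold over Kupffer cells without Kupffer library 2, and without alveolar library 1 Serpine2 was 633-fold, Upk1b 470-fold and Fcrls 648-fold over alveolar macrophages, against 402-fold for Fcrls with it. Tmem119 itself was 374-fold over splenic macrophages, the highest other type (log2 fold change 9.57, SE 0.342, adjusted p 6.89e-09), and P2ry12 was 58.4-fold over Kupffer cells (7.03, SE 0.150, adjusted p 2.17e-10).

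**Figure D3:**
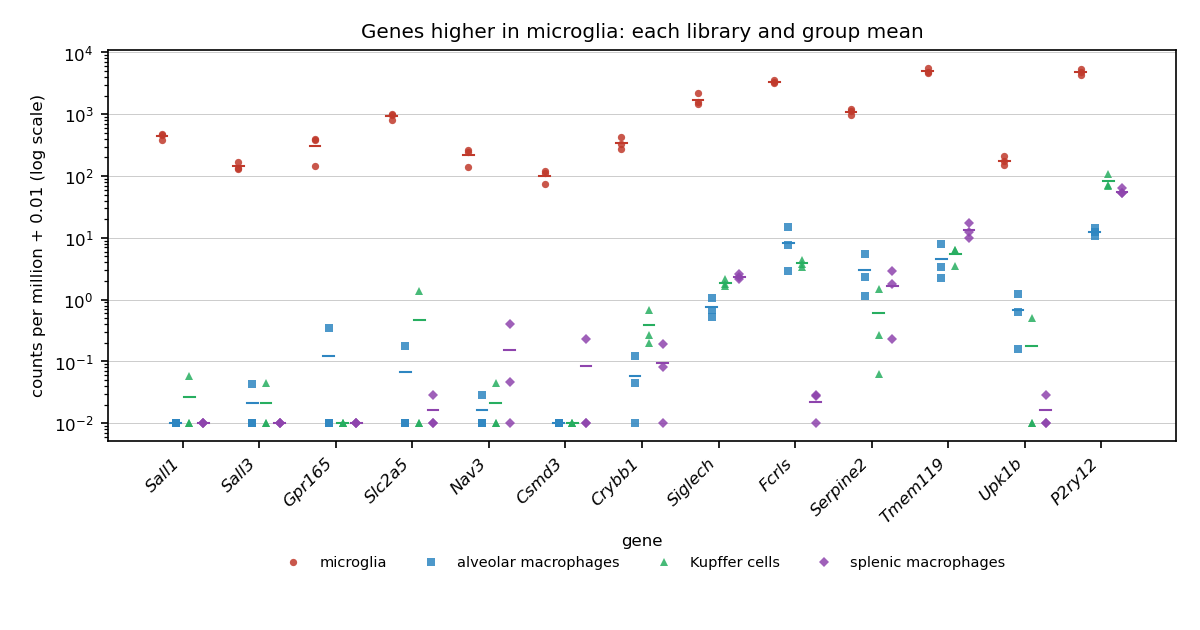
CPM (log axis, 0.01 added) in each of the 12 libraries for the 12 genes with the largest folds over the highest other type and for P2ry12; points are libraries, shaped and coloured by cell type, and short bars are group means. Every microglia library lies at 75.0 CPM or more and above every other library of its gene, and for Sall1 and Sall3 the other libraries lie at or near the bottom, where libraries with no read are drawn.

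Of the 30 genes of a list of microglial identity, 29 could be tested, and 29 were higher in microglia than the mean of the other 3 types. In the stricter call 28 were higher than each, and the median log2 fold change was 7.33. The list was chosen with earlier results of these data known, so its direction is not independent evidence. Its summed level was 72980 to 74680 CPM in microglia, against 2377 to 2853 in alveolar macrophages, 8220 to 9375 in Kupffer cells and 9730 to 11450 in splenic macrophages. Cx3cr1, the fractalkine receptor, had 6961, 5473 and 6522 CPM in microglia and at most 48.3 CPM elsewhere (log2 fold change 8.56, SE 0.381, adjusted p 3.33e-08). Olfml3 and Gpr34, a secreted matrix protein and a receptor for lysophosphatidylserine, had log2 fold changes of 9.24 and 7.42. Sparc, a matrix-binding glycoprotein, was less restricted: it had 4645, 6553 and 4200 CPM in microglia but 615, 532 and 991 CPM in Kupffer cells, a 7.20-fold difference. The single exception to the stricter call was Jam2, a junctional adhesion molecule, at 126, 121 and 135 CPM in microglia and 231, 106 and 172 CPM in Kupffer cells, whose ranges overlap.

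P2ry12 lies on chromosome 3 (mm10, 59216272 to 59262871, minus strand) in a row of related receptor genes, all within the body of Med12l (59005825 to 59318682, plus strand), which encodes a Mediator subunit. The row is Gpr171 (59096448 to 59101821), P2ry14 (59113855 to 59153618), P2ry13 (59207892 to 59210882) and P2ry12, all on the minus strand. The neighbours did not all go the same way. P2ry13, another ADP receptor, had 1622, 1746 and 1676 CPM in microglia and 127 to 258 CPM elsewhere (log2 fold change 3.27, SE 0.102, adjusted p 3.24e-09). P2ry14, a receptor for UDP-sugars, had 0.615, 2.14 and 1.32 CPM in microglia and was lower than in each other type (-4.22, SE 0.349). Gpr171 had 0, 0.994 and 0.0197 CPM in microglia and was lower too (-6.34, SE 0.978, adjusted p 0.000372). Med12l, at 84.5, 56.9 and 93.1 CPM, was higher in microglia (4.42, SE 0.247), but it overlaps P2ry12 and the rest on the opposite strand, so reads cannot be told apart without strand.

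Promoters are shown for genes of this comparison that were much higher in microglia or bear a motif whose share differed. The shares were not tested for a difference. The 250 bases before the annotated start were read from RefSeq (GRCm38.p6, which is mm10), where 278 of the 446 genes higher than each type with a fold of at least 4 had an entry. The first 4 sequences are of genes much higher in microglia that were chosen by name and not by rank. All 4 hold GGAAGT, the core letters bound by PU.1 and other ETS factors, on either strand, so they do not show how frequent the letters are. They are given 5′ to 3′ in the direction of transcription, with the match in capitals (ACTTCC is its reverse complement).
P2ry12: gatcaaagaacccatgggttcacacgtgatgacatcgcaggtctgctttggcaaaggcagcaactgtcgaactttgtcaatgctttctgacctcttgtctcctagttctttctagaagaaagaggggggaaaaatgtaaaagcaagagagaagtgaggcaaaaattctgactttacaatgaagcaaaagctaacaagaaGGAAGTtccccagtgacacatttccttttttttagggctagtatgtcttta
Fcrls: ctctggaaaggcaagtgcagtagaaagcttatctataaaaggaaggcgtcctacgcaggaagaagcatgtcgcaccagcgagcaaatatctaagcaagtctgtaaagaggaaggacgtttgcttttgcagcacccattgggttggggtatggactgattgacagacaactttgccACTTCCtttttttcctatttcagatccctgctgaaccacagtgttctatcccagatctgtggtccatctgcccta
Siglech: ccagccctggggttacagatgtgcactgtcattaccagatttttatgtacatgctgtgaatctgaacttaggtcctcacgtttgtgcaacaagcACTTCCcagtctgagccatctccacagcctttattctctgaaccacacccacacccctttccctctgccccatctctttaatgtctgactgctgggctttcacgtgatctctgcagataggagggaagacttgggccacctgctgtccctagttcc
Mef2c: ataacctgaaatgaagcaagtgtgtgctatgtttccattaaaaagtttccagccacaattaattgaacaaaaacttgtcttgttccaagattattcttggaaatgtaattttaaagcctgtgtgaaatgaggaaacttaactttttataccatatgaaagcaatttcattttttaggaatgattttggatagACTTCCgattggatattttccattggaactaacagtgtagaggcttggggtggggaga

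The regions are chr3:59262986-59263235 on the minus strand for P2ry12, chr3:87263525-87263774 on the minus strand for Fcrls, chr7:55767934-55768183 on the plus strand for Siglech and chr13:83503784-83504033 on the plus strand for Mef2c. The match began 51, 75, 156 and 58 bases before the RefSeq start in these 4 promoters. That start can differ from the one in the GENCODE annotation used for gene coordinates. There the minus-strand genes P2ry12 and Fcrls start at 59262871 and 87263738, so part of the Fcrls region lies inside its GENCODE gene. The letters were not more frequent among genes high in microglia: GGAAGT on either strand was in 45 of the 278 promoters of genes higher than each type (16.2%), in 156 of 583 of genes lower than each type with a fold of at least 4 (26.8%), in 2944 of 12817 of all genes tested (23.0%) and in 5401 of 27025 of all promoters in the table (19.99%). The longer PU.1 letters GAGGAAGT, which contain GGAAGT, were in 5 of 278, 26 of 583 and 335 of 12817 promoters of the same sets (1.80%, 4.46% and 2.61%). The E-box CACCTG, read by ZEB2 and other E-box factors, was in 43 of 278 (15.5%), 103 of 583 (17.7%) and 2037 of 12817 (15.9%), and the SMAD palindrome GTCTAGAC was in 24 of 12817 (0.187%), in 47 of 27025 of all promoters (0.174%) and in none of the 278 or the 583. A match is a description of letters and not a binding site.

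The consensus of the MEF2 factors, an A/T-rich palindrome that reads the same on either strand, had the opposite order. It was in 6 of the 278 promoters of genes higher than each type (2.16%), 1 of 583 of genes lower than each (0.172%), 57 of 12817 of genes tested (0.445%) and 140 of 27025 of all promoters (0.518%). With any letters in its centre it was in 15 of 278 (5.4%), 8 of 583 (1.37%) and 354 of 12817 (2.76%). The counts are small, several letter patterns were searched, and the difference was not tested. The 6 genes, which were picked out after their values were seen, are Hspb3, Tnfrsf17, Capn3, Dusp27, Gm11769 and Lrrc39. Promoters of 3 of them follow, with the motif in capitals.
Hspb3: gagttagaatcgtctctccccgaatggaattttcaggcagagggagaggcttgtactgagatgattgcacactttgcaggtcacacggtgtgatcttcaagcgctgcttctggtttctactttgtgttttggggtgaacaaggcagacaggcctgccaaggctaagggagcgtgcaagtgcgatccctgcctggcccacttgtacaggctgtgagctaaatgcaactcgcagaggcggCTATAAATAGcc
Tnfrsf17: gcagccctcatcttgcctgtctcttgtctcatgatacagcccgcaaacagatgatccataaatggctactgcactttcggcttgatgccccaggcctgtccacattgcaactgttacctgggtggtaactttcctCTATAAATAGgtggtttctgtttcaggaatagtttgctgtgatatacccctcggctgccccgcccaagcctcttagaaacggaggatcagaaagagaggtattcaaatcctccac
Capn3: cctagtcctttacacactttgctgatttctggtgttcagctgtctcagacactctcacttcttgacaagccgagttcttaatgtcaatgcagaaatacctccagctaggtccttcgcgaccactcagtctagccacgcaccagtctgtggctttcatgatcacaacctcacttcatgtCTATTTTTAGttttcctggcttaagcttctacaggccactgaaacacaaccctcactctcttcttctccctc

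These are chr13:113663677-113663926 on the minus strand, chr16:11313559-11313808 on the plus strand and chr2:120463343-120463592 on the plus strand, and the motif begins 12, 115 and 72 bases before the start. In Hspb3 and Tnfrsf17 the motif also holds TATAAA, the letters of a TATA box. Hspb3, which encodes a small heat shock protein known from muscle, had 18.7, 30.7 and 22.3 CPM in microglia and no read in the 9 other libraries. Capn3, a calpain protease of muscle, had 24.7, 18.2 and 21.2 CPM, and Tnfrsf17, the receptor BCMA known from plasma cells, had 15.5, 35.8 and 18.2 CPM. All 3 lay at low levels, and each was higher in every microglia library than in any other library.

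Among the 44 transcription factors of a list for macrophages, 19 were higher in microglia, 11 were lower and 14 were not called, with a median log2 fold change of 0.40. The lower share was 25%, against 20.3% of all genes tested. In the stricter call 10 were higher and 8 lower than each other type. Mef2c, a MADS-box factor whose human gene is linked to autism and intellectual disability, had 683, 627 and 711 CPM in microglia, 7.48 to 14.1 in alveolar macrophages, 81.8 to 108 in Kupffer cells and 50.8 to 86.1 in splenic macrophages (log2 fold change 4.12, SE 0.172, adjusted p 2.21e-08). Its paralog Mef2a had 521, 337 and 579 CPM (1.89, SE 0.172), 2.07-fold over Kupffer cells. Smad3, the transducer of TGF-beta, had 160, 83.1 and 136 CPM, 4.99-fold over Kupffer cells. All microglia libraries were above all others for these 3 genes, with library 2 the lowest.

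Several factors of the list were lower in microglia. Spic, which red pulp macrophages need, had no read in microglia and 1639, 1446 and 1343 CPM in splenic macrophages. It was low in alveolar macrophages too, the lowest other type. Against them the microglia were at least 9.27-fold lower, or 5.23-fold without alveolar library 3. Pparg, a lipid-sensing nuclear receptor required by alveolar macrophages, had 0.447, 0.306 and 0.316 CPM in microglia and 16.2 to 370 CPM elsewhere (-8.24, SE 0.241, adjusted p 2.32e-09). Nr1h3, which encodes LXR-alpha, a factor of Kupffer cells and the splenic marginal zone, had 1.34, 1.4 and 2.07 CPM and at least 56.4 CPM in every other library (-7.20, SE 0.209). Rara, the retinoic acid receptor alpha, had 0.0186, 0.363 and 0 CPM in microglia, 420-fold less than in Kupffer cells (log2 fold change -9.27, or -12.71 without microglia library 2). The paralogs Bhlhe40 and Bhlhe41 went in opposite directions: Bhlhe40 had 0, 1.62 and 0.256 CPM in microglia and 107 to 889 CPM elsewhere (-9.13, SE 0.964, or -11.39 without library 2), and Bhlhe41 had 108, 52.3 and 112 CPM in microglia and 0.688 to 42.7 CPM elsewhere (3.64, SE 0.358).

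Spi1 and Zeb2 had no call. Spi1, which encodes PU.1, had 461, 597 and 419 CPM in microglia and 344 to 730 CPM elsewhere (-0.03, SE 0.136, adjusted p 0.891). Zeb2, the gene studied in this series, had 329, 171 and 276 CPM in microglia, within the range of 190 to 330 CPM of the others except for library 2 (-0.05, SE 0.207, adjusted p 0.891). Maf, which encodes c-MAF, had 83.7, 120 and 90.6 CPM, close to Kupffer cells at 81.4, 81.0 and 99.4 CPM, and its log2 fold change fell from 2.51 to 0.56 with alveolar macrophages left out of the mean (adjusted p 0.0798). Maf was low in alveolar macrophages, at most 1.86 CPM.

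The TGF-beta pathway, in which a ligand binds TGFBR2 and TGFBR1 and signals through SMAD proteins, had 15 of 37 genes higher, 9 lower and 13 not called, with a median log2 fold change of 0.38. The shares were 40.5% higher and 24.3% lower, against 21.7% and 20.3% of all genes tested. Of the 37 genes, 7 were higher and 2 lower than each other type. The ligand Tgfb1 had 235, 232 and 231 CPM in microglia and 162 to 309 CPM elsewhere (0.16, SE 0.096, adjusted p 0.205), with overlapping ranges. Nrros, which holds latent TGF-beta at the surface, was lower than the mean (-0.56, SE 0.158, adjusted p 0.0152): splenic macrophages held 1122 to 1454 CPM, and the microglia, at 426, 298 and 279 CPM, overlapped both other types. Its adjusted p was 0.0683 without microglia library 2 and 0.0847 without library 3. Itgb5, an integrin subunit that binds latent TGF-beta, had 3624, 2510 and 2990 CPM, 3.12-fold over splenic macrophages. Tgfbr1 had 1990, 1146 and 2228 CPM in microglia, 455 to 614 in alveolar macrophages and at most 171 in the others (3.08, SE 0.185, adjusted p 3.04e-07), while Tgfbr2, at 745, 474 and 705 CPM, overlapped alveolar macrophages (0.65, SE 0.169), with an adjusted p of 0.0725 without microglia library 1, 0.0528 without library 3 and 0.0943 with Kupffer cells left out of the mean. Smad7, an inhibitory target, had 165, 134 and 160 CPM, 2.64-fold over Kupffer cells, and Pmepa1, another feedback inhibitor, had 264, 409 and 240 CPM, 2.90-fold over alveolar macrophages.

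Genes of the CSF1 receptor and TREM2 signalling list had 5 of 21 higher, 10 lower and 6 not called (median -0.54). The higher share, 23.8%, was near the 21.7% of all genes tested. The lower share was 47.6%, against 20.3%. Csf1r, the receptor macrophages need to survive, had 16470, 11440 and 16370 CPM in microglia, 6168 to 9575 in Kupffer cells and splenic macrophages and 492 to 752 in alveolar macrophages (2.25, SE 0.150, adjusted p 6.73e-07). Csf3r, the receptor of the granulocyte factor G-CSF, had 866, 632 and 743 CPM, 6.15-fold over alveolar macrophages. Both were above all other libraries. Trem2, the lipid receptor whose variants raise the risk of Alzheimer's disease, had 1278, 1909 and 1387 CPM in microglia, 23.5 to 49.1 in alveolar macrophages and Kupffer cells and at most 0.395 in splenic macrophages (8.06, SE 0.401, adjusted p 7.54e-08, or 8.83 without splenic library 1). Its adaptor Tyrobp had 724, 1154 and 754 CPM and 635 to 897 CPM elsewhere (0.32, SE 0.146, adjusted p 0.0973), so receptor and adaptor did not move together. Inpp5d, the phosphatase SHIP1, had 1709, 843 and 1421 CPM, 2.17-fold over splenic macrophages. Csf2ra and Csf2rb, subunits of the GM-CSF receptor, were lower than in each type, with log2 fold changes of -1.34 and -1.59. Apoe, the lipid carrier that TREM2 binds, had 407, 532 and 539 CPM in microglia and 18150, 21990 and 19810 CPM in Kupffer cells. Its microglial values were low beside Kupffer cells and splenic macrophages but all above those of alveolar macrophages, at 336, 197 and 359 CPM.

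Purinergic genes, which code for receptors of nucleotides and adenosine and the enzymes that degrade them outside the cell, had 11 of 22 higher, 10 lower and 1 not called (median 0.36). Of these, 9 were higher than each other type and 4 lower than each, and their summed level was 9624 to 11010 CPM in microglia against 782 to 1686 CPM in the other libraries. P2ry12 and P2ry13 made up most of the sum. P2ry6, the UDP receptor that triggers phagocytosis in microglia, had 342, 389 and 296 CPM, 2.82-fold over Kupffer cells (4.06, SE 0.125). P2rx7, the channel opened by high ATP, had 282, 229 and 312 CPM (1.81, SE 0.155), and P2rx1 had 25.7, 26.7 and 28.6 CPM, against 0.589, 2.67 and 1.93 CPM in Kupffer cells and no read elsewhere. Adora3, an adenosine receptor, had 50, 57.3 and 55 CPM and at most 1.53 CPM elsewhere (6.91, SE 0.458, or 8.58 without splenic library 1). The 2 ectoenzymes that turn ATP into adenosine differed: Entpd1, which encodes CD39, had 902, 606 and 675 CPM, above all others (1.60, SE 0.138), and Nt5e, which encodes CD73, had 1 read in microglia, against 65.2, 70.6 and 88.2 CPM in alveolar macrophages. P2rx4, an ATP-gated channel, was lower (-1.25, SE 0.128), with overlap with alveolar macrophages.

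Of 35 genes for contact with neurons and glia, 16 were higher in microglia, 7 lower and 12 not called (median 0.81), and 7 were higher than each other type. Adgrg1, the adhesion receptor GPR56, had 1657, 1322 and 1588 CPM, 27.2-fold over Kupffer cells (6.01, SE 0.267). Plxdc2, a membrane protein with a plexin domain, had 974, 843 and 1039 CPM, 17.4-fold over alveolar macrophages. Sema4d, a guidance cue that acts on plexins, had 485, 282 and 466 CPM, and Rtn4rl1, a relative of the Nogo receptor, had 350, 306 and 335 CPM against at most 5.88 CPM elsewhere. For these 4 genes every microglia library was above all others. Plxnd1 and Sema6d went the other way, with 0.597, 0.0573 and 1.06 CPM for Plxnd1 (-6.41, SE 0.577, or -7.2 without library 3) and 37.0, 23.3 and 29.4 CPM for Sema6d (-3.13, SE 0.184).

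Ion channels and membrane carriers had 21 of 35 genes higher, 8 lower and 6 not called (median 0.99), and 9 were higher than each other type. Besides Slc2a5, Kcnd1, a voltage-gated potassium channel, had 124, 105 and 126 CPM and at most 3.22 CPM elsewhere (7.09, SE 0.843, or 8.25 without Kupffer library 1). Slco2b1, an organic anion carrier, had 2096, 1383 and 2087 CPM, 3.98-fold over splenic macrophages, and Slc46a1, the folate carrier, had 168, 177 and 159 CPM, 5.47-fold over Kupffer cells. Slc29a3, a lysosomal nucleoside carrier, had 772, 594 and 778 CPM, 4.55-fold over splenic macrophages. Slc7a2, an arginine carrier, was near 0 in microglia with 0.559, 0.115 and 0.0592 CPM, against 498 to 612 CPM in alveolar macrophages.

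Levels of different genes can be set side by side only per length, as the deposited TPM, an abundance scaled for transcript length and library size. Among the 10 highest protein-coding genes of microglia were Cst3 at 70830 ± 18390 TPM (SD, n = 3), C1qb at 18100 ± 2212, Junb at 14160 ± 983, Ctss at 12630 ± 1542, Jun at 11680 ± 1729, C1qa at 10880 ± 1730, Hspa1b at 10460 ± 2734, Tmsb4x at 10450 ± 2487 and Ctsd at 10010 ± 822. They comprise secreted and lysosomal proteins, complement C1q and immediate early or heat shock genes, besides the actin-binding thymosin Tmsb4x, which was not called different (-0.37, adjusted p 0.11) but was lower without microglia library 2 (-0.64, adjusted p 0.00756). Reads of Hspa1b may be shared with its near-identical copy Hspa1a, and Jun and Junb overlap other genes on the opposite strand.

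Cst3, which encodes cystatin C, an inhibitor of cysteine proteases, had 24900, 40700 and 21810 CPM in microglia and 526 to 1591 CPM elsewhere (log2 fold change 5.14, SE 0.173, adjusted p 4.61e-09). Lysosomal genes as a list had 24 of 45 members higher, 10 lower and 11 not called (median 0.37), and 13 were higher than each other type. Their summed level was 78650 to 105900 CPM in microglia and 40190 to 49680 CPM in the 9 other libraries, with microglia library 2 the highest. Cst3 was a large part of the microglial sum but not most of it. The cathepsins Ctsd, Ctss and Ctsl had 7799, 8185 and 6623 CPM, 4705, 6840 and 5053 CPM, and 885, 1287 and 894 CPM. They were 1.48-, 1.68- and 1.6-fold over the highest other type, far less than Cst3. Hexa, a lysosomal hexosaminidase subunit, had 1116, 1218 and 950 CPM, 1.4-fold over alveolar macrophages.

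The 12 genes with the largest folds under the lowest other type were Clec4n, Fpr1, Ear2, Slpi, Marco, Acp5, Cd44, C3, Xdh, Rara, Cfp and Rnd3, ranked among 438 genes lower than each type. Clec4n, which encodes the fungal receptor dectin-2, had no read in microglia, 566, 732 and 606 CPM in alveolar macrophages, 192, 194 and 186 in Kupffer cells and 828, 788 and 791 in splenic macrophages, which makes it at least 9952-fold lower in microglia than in Kupffer cells. Fpr1, the receptor for bacterial formyl peptides, also had no read and was at least 6947-fold lower than in splenic macrophages. Ear2, an eosinophil-type ribonuclease whose near-identical copies may share its reads, had no read in microglia either and was at least 3907-fold lower than in Kupffer cells. With fewer microglia reads these 3 limits were 6543-, 4568- and 2569-fold without library 1 and 6628-, 4627- and 2602-fold without library 2. Slpi, a secreted inhibitor of elastase, had no read in microglia and 16.4, 123 and 41.3 CPM in Kupffer cells, the lowest other type, so library 2 decides a fold against them. In bulk samples fewer cells of a type and less RNA per cell cannot be told apart.

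Marco, Acp5 and Rnd3 had a few reads that lay in 1 microglia library. Marco, a scavenger receptor, had 0, 0.191 and 0 CPM in microglia and 94.7 to 1294 CPM elsewhere, and without library 2 it had no read. Acp5, the tartrate-resistant acid phosphatase, had 0, 0 and 0.533 CPM, all in library 3, and Rnd3, an atypical small GTPase, had 0, 0.841 and 0 CPM, all in library 2. Cd44, the hyaluronan receptor, had 0, 0.325 and 1.72 CPM in microglia and 294 to 1354 CPM elsewhere (-9.97, SE 0.961, adjusted p 1.09e-05, or -12.04 without library 3). Xdh, xanthine dehydrogenase, had 0.261, 0.0382 and 0.0789 CPM, 437-fold less than in splenic macrophages and 940-fold less without library 1.

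**Figure D4:**
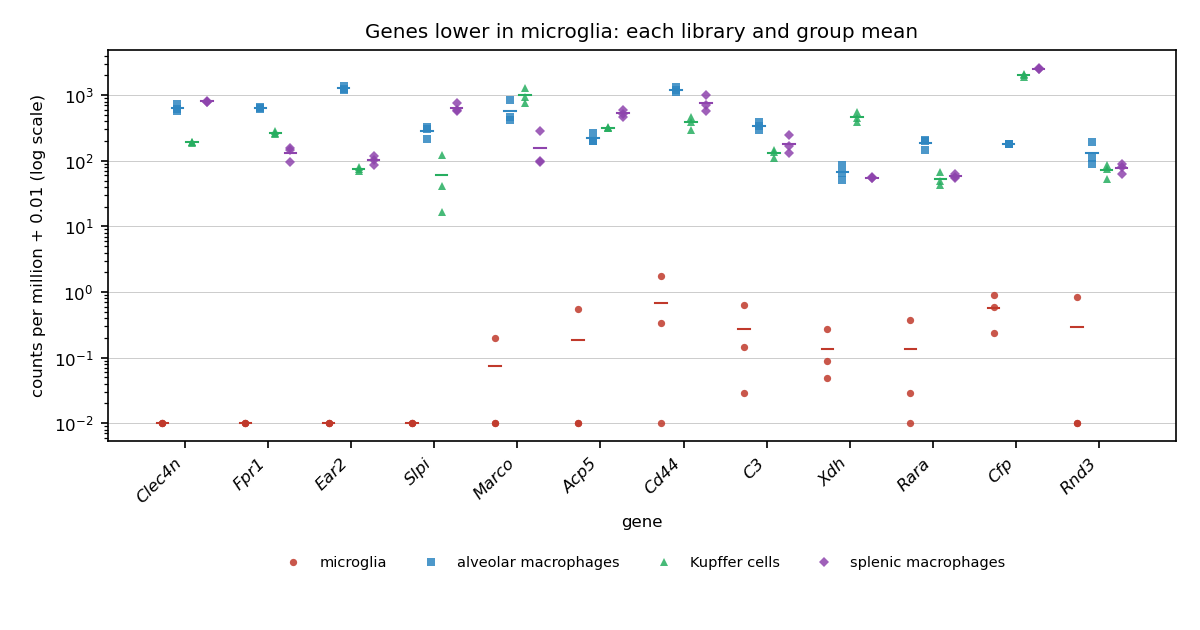
CPM (log axis, 0.01 added) in each of the 12 libraries for the 12 genes with the largest folds under the lowest other type; points are libraries, shaped and coloured by cell type, and short bars are group means. Libraries with no read are drawn at the bottom, where all 3 microglia libraries lie for Clec4n, Fpr1, Ear2 and Slpi, while every other library lies at 16.4 CPM or more.

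Complement genes were split. Of 21 tested, 8 were higher, 12 lower and 1 not called (median -3.0). The 3 chains of C1q, which starts the classical pathway and tags synapses, were higher: C1qa had 3148, 4704 and 3125 CPM, 1.66-fold over Kupffer cells and higher than each type (2.97, SE 0.195), and C1qb and C1qc, 1.37- and 1.55-fold over Kupffer cells, were called only against the mean. Itgam, a chain of complement receptor 3, had 328, 277 and 347 CPM (5.27, SE 0.212). C3, the central component, had 0.0186, 0.134 and 0.631 CPM in microglia and 111 to 387 CPM elsewhere (-9.53, SE 0.657, or -11.28 without library 3). Cfp, properdin, which stabilises the alternative pathway, had 0.578, 0.229 and 0.887 CPM and 181 CPM or more in every other library (-10.68, SE 0.406). Vsig4, the complement receptor of Kupffer cells, had 2 reads in microglia, fewer than can carry a fold.

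Of 32 genes for the uptake of dying cells and other particles 10 were higher, 16 lower and 6 not called (median -0.44). Axl, a receptor tyrosine kinase for dying cells, had 25.6, 9.0 and 22.4 CPM in microglia and 1767 to 5444 CPM elsewhere (-7.21, SE 0.401, adjusted p 1.77e-07). Its relative Mertk had 1065, 674 and 860 CPM and 510 to 1090 CPM elsewhere, with no call (0.37, SE 0.141, adjusted p 0.0522). Without microglia library 2 Mertk was called higher (0.55, adjusted p 0.00563), and with DESeq2 it had an adjusted p of 0.0406. The bridging ligands Gas6, at 271, 293 and 299 CPM, and Pros1, at 576, 521 and 649 CPM, were higher than the mean of the others (2.74, SE 0.27 and 2.35, SE 0.149), though Pros1 overlapped alveolar macrophages. Mrc1, the mannose receptor, had 16.4, 16.1 and 35.2 CPM against at least 1162 CPM in every other library. Timd4, which binds phosphatidylserine, and Cd36, a scavenger receptor, were at most 0.533 and 1.56 CPM in microglia.

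Most genes of MHC class II and of the interferon response were lower in microglia. For MHC class II, 11 of 15 genes were lower, 2 higher and 2 not called (median -2.45), and the summed level was 812 to 971 CPM in microglia, 2223 to 3760 in alveolar macrophages and 12110 to 19680 in Kupffer cells and splenic macrophages. Cd74, the invariant chain, had 78.4, 76.0 and 62.1 CPM in microglia and 954 to 10840 CPM elsewhere (-5.95, SE 0.290). H2-Oa, which modulates peptide loading, and Cd86, a costimulatory ligand, were the 2 higher genes (1.86, SE 0.170 and 0.94, SE 0.138), and Cd86 turned to -0.48 with alveolar macrophages left out of the mean. Markers of B cells, which also carry MHC class II, summed to 573 to 698 CPM in microglia, most of it Ighm, 87.1 to 175 in alveolar macrophages and 761 to 1943 in Kupffer cells and splenic macrophages. Of these markers 10 of 12 were lower in microglia, 1 was higher and 1 was not called (median -5.84). Ighm lost its call as higher with alveolar macrophages left out of the mean (0.324, adjusted p 0.364). The part of B cells in the MHC class II result was not tested. For the interferon-stimulated genes 28 of 31 were lower and 3 not called (median -2.95), and 17 were lower than each other type. Irf7, a regulator of interferon genes, had 6.80, 11.9 and 7.08 CPM in microglia, 12 to 21.7 in alveolar macrophages and 232 to 1079 in the others. Lyz2, lysozyme, had 106, 156 and 98.0 CPM against 210 CPM or more in every other library, and Cybb, the catalytic chain of the phagocyte NADPH oxidase, had 0.708, 3.36 and 3.06 CPM against at least 421 CPM.

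Lipid handling had 28 of 38 genes lower, 5 higher and 5 not called (median -1.92), and 17 were lower than each other type. Lpl, lipoprotein lipase, had 28.0, 35.1 and 47.5 CPM in microglia and at least 191 CPM elsewhere (-4.44, SE 0.315), and Plin2, a lipid droplet coat protein, had 56.7, 50.8 and 42.7 CPM and at least 411 CPM elsewhere (-4.20, SE 0.218). Abca9, a transporter of the ABC family, was the 1 lipid gene higher than each type, with 939, 350 and 781 CPM (3.64, SE 0.326). For heme and iron 18 of 30 genes were lower, 2 higher and 10 not called (median -0.83, or -1.03 with genes at 0 in a group set at their bound). Hmox1, which breaks down heme, had 236, 421 and 416 CPM, above alveolar macrophages at 142 to 199 but below Kupffer cells and splenic macrophages. Slc40a1, the iron exporter ferroportin, had 295, 260 and 293 CPM and lay likewise between alveolar macrophages, at most 17.7 CPM, and the other 2 types, at least 3577 CPM. Erythroid markers summed to 5894 to 22600 CPM in the splenic libraries and to 34.1, 48.8 and 238 CPM in microglia, library 3 being the highest, and their part in the heme result was not tested.

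Of 35 cytokines and chemokines 7 were higher, 17 lower and 11 not called (median -1.88). The higher share was 20%, against 21.7% of all genes tested. Ccl3 had 596, 731 and 496 CPM, Ccl4 1205, 1430 and 1096 CPM, and Ccl12 54, 80 and 60 CPM, and these chemokines were higher than in each type by 3.53-fold, 4.74-fold and 17.6-fold over the highest. Il1b had 9.49, 12.1 and 4.16 CPM in microglia and at least 201 CPM elsewhere (-6.49, SE 0.711), while Tnf overlapped (-0.23, SE 0.649, adjusted p 0.817). Of 34 growth factors and matrix genes 12 were higher, 18 lower and 4 not called (median -2.53). Pdgfb, a mitogen for pericytes, had 131, 146 and 104 CPM, 2.05-fold over splenic macrophages, and Adamts1, a matrix protease, had 709, 340 and 692 CPM, 3.40-fold over Kupffer cells. Igf1, the growth factor that microglia raise in development and disease, had 0.112, 1.70 and 1.75 CPM in these libraries and at least 14.9 CPM elsewhere (-6.72, SE 0.674). Among integrins Itga6 and Itgb3 were higher than in each type, 6.65- and 6.31-fold over Kupffer cells, and Itga4 and Itgal, which serve adhesion of blood leukocytes, were lower (-5.12, SE 0.472 and -8.51, SE 0.741), Itga4 at -6.09 without microglia library 1.

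Genes known to be raised in disease-associated microglia were mostly lower in these wildtype microglia than in the other macrophages: 17 of 25 were lower, 7 higher and 1 not called (median -3.57). Lgals3, galectin-3, had 2.18, 5.47 and 2.78 CPM against at least 397 CPM elsewhere (-7.81, SE 0.392), and Itgax, the CD11c integrin, had 11.3, 12 and 6.82 CPM against at least 32.5 CPM. Clec7a, the receptor dectin-1, had 4.10, 14.6 and 12.4 CPM against at least 81.6 CPM. Cst7, Cd63 and Cd9 were higher than the mean (2.85, SE 0.425, then 3.20, SE 0.173, and 1.71, SE 0.145), of which Cst7, a cystatin, was at only 5.13, 12.6 and 5.13 CPM, and Cd9 was lower than in alveolar macrophages.

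Immediate early and heat shock genes, which are induced within minutes to hours of a stimulus, including tissue digestion, had 16 of 30 members higher, 6 lower and 8 not called (median 1.02), and 13 higher without microglia library 2. Their summed level was 74090 to 80870 CPM in microglia, 12860 to 36920 in alveolar macrophages, 20040 to 39090 in Kupffer cells and 42530 to 50200 in splenic macrophages. Jun had 12290, 10840 and 12370 CPM in microglia and 511 to 4532 CPM elsewhere (2.52, SE 0.304, adjusted p 6.17e-05), and Fos had 6426, 6599 and 6248 CPM and 1901 to 5582 CPM elsewhere (1.07, SE 0.293, adjusted p 0.0132). Nr4a1 and Nr4a2 went the other way (-2.07, SE 0.328 and -6.63, SE 0.455): Nr4a2 had 0.391, 0.650 and 0.966 CPM against at least 12.4 CPM elsewhere. The labels do not say whether digestion was alike in the 4 tissues, and its part in these values was not tested.

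Cell cycle genes were low in microglia: 29 of 30 were lower and 1, Tyms, was not called (median -3.98). In the stricter call 26 were lower than in each other type. Their summed level was 231 to 266 CPM in microglia, against 766 to 2068 CPM in the 9 other libraries. Mki67, which encodes the proliferation marker Ki-67, had 1.88, 2.43 and 0 CPM in microglia, 66 to 83.1 in alveolar macrophages, 26.2 to 28.0 in Kupffer cells and 35.9 to 113 in splenic macrophages (-5.10, SE 0.860, adjusted p 0.000693). Top2a, the topoisomerase of dividing cells, had 0, 1.78 and 0.316 CPM against at least 29.4 CPM elsewhere (-6.13, SE 0.834, or -8.24 without library 2). Mcm2, a subunit of the replicative helicase, had 5.35, 11.3 and 13.9 CPM against at least 64.2 CPM (-2.91, SE 0.3).

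**Figure D5:**
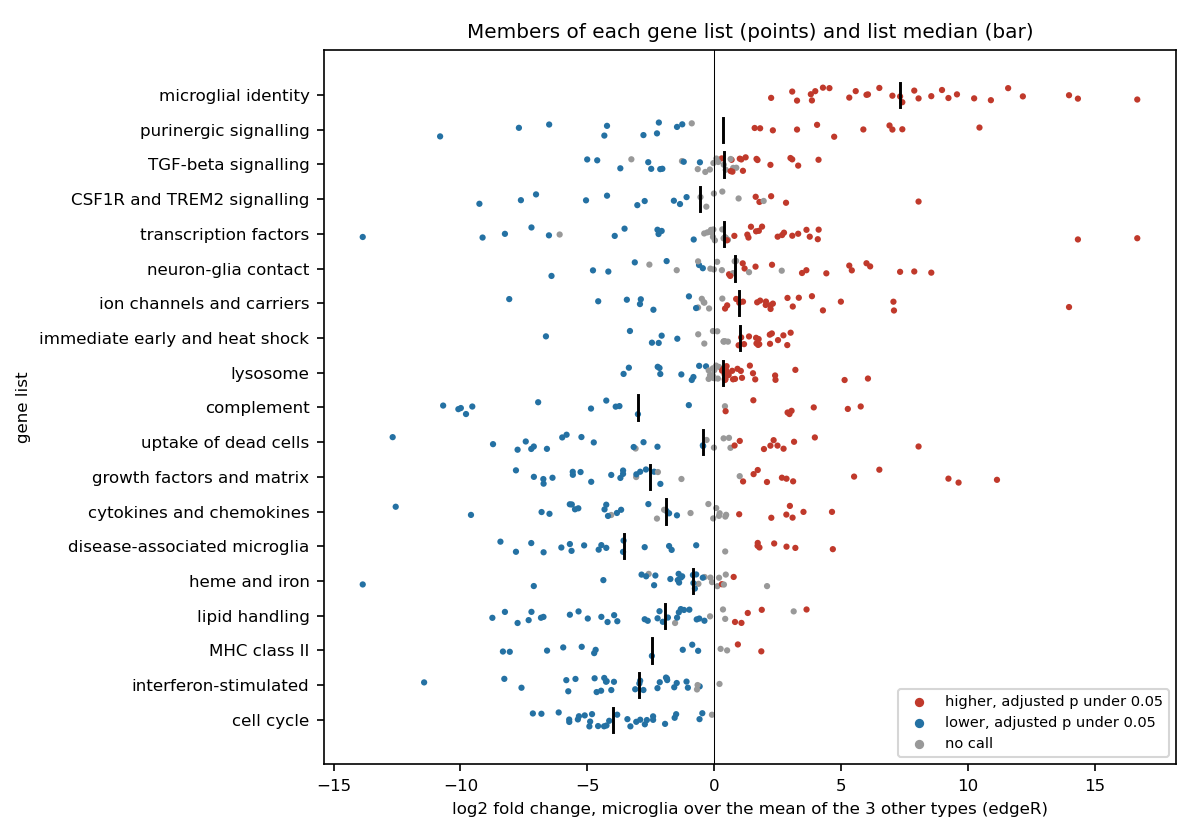
Log2 fold change of microglia over the mean of the other 3 types (x axis) for the tested members of 19 gene lists (rows); points are genes, red where higher, blue where lower and grey where not called, and black bars are list medians. The microglial identity list lies wholly to the right (29 of 29 higher), the interferon (28 of 31) and cell cycle (29 of 30) lists lie almost wholly to the left, and most others spread to both sides.

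Lists of the other 3 types' own genes were mostly lower in microglia. Of alveolar genes 19 of 26 were lower and 2 higher (median -4.35), of Kupffer cell genes 18 of 21 lower and 1 higher (median -5.83), and of splenic red pulp genes 15 of 19 lower and 4 not called (median -4.95). Such genes are known to be high in a type that enters the mean. The lists were also chosen with earlier results of these data known, so their direction is not independent evidence. In the stricter call 11 alveolar, 9 Kupffer cell and 6 red pulp genes were lower than each type. Of genes shared by macrophages 9 of 20 were higher and 4 lower (median 0.35). Adgre1, which encodes F4/80, had 541, 627 and 618 CPM, above alveolar macrophages at 347 to 435 and below the other 2 types at 1744 to 2126, and Cd68 did not differ by call (-0.03, SE 0.132, adjusted p 0.882).

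Markers of other cells were summed in the microglia libraries too. Genes of macrophages at the brain's borders were lower than the mean of the other types at 14 of 16, with 1 higher and 1 not called (median -5.56). They summed to 627 to 931 CPM in microglia and 1840 to 4873 CPM elsewhere. Lyve1 was at most 2.85 CPM in microglia, Cd163 at most 1.79 CPM, Ms4a7 at most 0.552 CPM and Cd209f had no read, so other members made up most of the sum. For Lyve1 the microglial mean was above that of splenic macrophages. Its call was lost with Kupffer cells left out of the mean (-0.481, adjusted p 0.707) and in most fits with 1 library left out. Neuronal markers summed to 7.67 to 17.3 CPM in microglia and to 24.55 to 26.95 CPM in Kupffer cells. Their sums were 3.84 to 10.9 CPM in alveolar and 6.67 to 10.9 CPM in splenic macrophages. Among them Snap25 had 1.38, 2.43 and 2.56 CPM in microglia and no read elsewhere. Of the oligodendrocyte markers 8 of 10 were higher in microglia and 2 not called, and 5 had no read in at least 1 group. Their sum was 87.3 to 160 CPM in microglia, overlapping alveolar macrophages at 113 to 133 CPM. It was at most 55.0 CPM in Kupffer cells and splenic macrophages. Mbp, myelin basic protein, had 45.4, 46.3 and 60.5 CPM, overlapping alveolar macrophages at 54.7 to 71.7 CPM. With splenic macrophages left out of the mean Mbp lost its call (0.277, adjusted p 0.237). Astrocyte markers summed to 5.46 to 8.62 CPM in microglia, with no read of Gfap and at most 0.0956 CPM of Aqp4, and to 42.4 to 248 CPM elsewhere. Endothelial and pericyte markers summed to 75.0 to 108 CPM in microglia and to 242 to 6337 CPM elsewhere. T and NK cell markers summed to 1.06 to 1.22 CPM in microglia and 44.7 to 512 CPM in the other libraries, with all 14 lower. Monocyte markers were lower at 13 of 15 (median -5.47), with Ly6c2 at most 0.764 CPM. Neutrophil markers summed to 633 to 867 CPM in microglia, 267 to 445 in alveolar macrophages, 124 to 158 in Kupffer cells and 180 to 252 in splenic macrophages. Csf3r, the 1 member higher in microglia, made up most of the microglial sum, and 7 of 12 members were lower, with S100a8 at most 0.115 CPM and no read of Ly6g. Dendritic cell markers summed to 1533 to 2311 CPM in microglia, 95.6 to 114 in alveolar macrophages, 889 to 1206 in Kupffer cells and 377 to 594 in splenic macrophages. Siglech made up most of the microglial sum, and 8 of 12 members were lower and 2 higher.

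The spread among the 3 microglia libraries was described for 3535 genes at 50 CPM or more, by the SD of log2 CPM with 0.5 added. The 8 genes with the largest spread included Flna, Lars2, Dock1, Slc9a9, Card9, Sec16a and Ints1, and library 2 was the odd one for each of these except Card9, which was lowest in library 1 and highest in library 2. Flna, an actin crosslinker, had 160, 40.4 and 190 CPM, lowest in library 2. Lars2, a mitochondrial leucyl-tRNA synthetase, had 90.8, 340 and 76.9 CPM, highest in library 2. Without library 2, Lars2 was called lower than the mean of the other types (-0.77, adjusted p 0.0429) and Ints1 higher (0.56, adjusted p 0.0417). Exonic length was 9189 to 11089 bases in each of these genes except Slc9a9 and Card9. Slc9a9, an endosomal sodium-proton exchanger, at 122, 30.7 and 111 CPM, and Card9, an adaptor of dectin receptors, at 40.1, 179 and 113 CPM, were shorter.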

How the data were processed

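RNA-seq libraries of macrophages sorted from mouse brain, lung, liver and spleen were read from a table of counts per gene deposited by the authors, not normalized, with 1 column for each library. The submitters' processing notes name mm10, DRAGEN, STAR, Subread, featureCounts and Salmon, without saying what each did, and the strand setting and annotation are not given in the sources used here. Of 55774 rows 287 repeats of a gene identifier were dropped, which left 55487 genes. The TPM values deposited by the authors served only to rank genes per length within microglia. Exonic lengths and coordinates came from GENCODE M21 (mm10), which held 99.82% of the genes tested.

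Groups were taken from the sample labels. The 12 wildtype libraries were fitted together with edgeR 4.0.16 in R 4.3.3 (filterByExpr with a minimum of 10 counts, TMM scaling, quasi-likelihood F test, 8 residual degrees of freedom), with 1 mean for each type. The contrast set microglia against the mean of the other 3 types, and each pair was tested too. A gene was called higher or lower than each type where all 3 pairwise folds had that sign and the largest of the 3 p-values passed after Benjamini-Hochberg adjustment over the 21679 genes tested, at a threshold of 0.05. Log2 fold changes are TMM-scaled, and CPM values are counts divided by library totals. The fit was tested on simulated data with known changes. Library totals are given with the results; replicates differed by more than counting error in every group (chi-square per degree of freedom of at least 43).

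Named genes were the 12 with the largest smallest pairwise fold upwards and 12 downwards among genes called against each type that did not overlap and had at least 50 CPM (in microglia, or in every other type), the 10 highest by TPM, the 8 with the largest spread among microglia, the markers and members of 37 gene lists. Mitochondrial genes, pseudogenes and unnamed models were left out of the ranked sets. Gpr171, Med12l and genes named for a promoter motif were added for their position or sequence. Members and lists were chosen with earlier results of these data known. Libraries with the same number in different tissues did not deviate together (correlations of -0.0224 to 0.0772 over 18 pairs), so the numbers were not taken to pair the samples. Whether such libraries share an animal is not given in the labels. Alternatives were DESeq2 1.42.0, other scalings, no expression filter, a replicate block, each library left out and each other type left out. Figures were drawn with matplotlib 3.10.9. Some genes of the ranked sets and lists are not reported here.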

Additional observations from a re-analysis of the deposited data

How the results depend on the processing

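The calls were recomputed with DESeq2, DESeq2's size factors, library totals alone, no expression filter, the replicate number as a block, and each library or other type left out. Genes higher in microglia than the mean of the other types numbered 4302 to 5714 in the first 4 of these and lower ones 3992 to 5120, within 1.5 times the values reported. With each library left out they numbered 3920 to 4783 and 3665 to 4213, and genes higher or lower than each type 856 to 1059 and 1293 to 1641. The replicate block gave 4348, 4162, 1020 and 1382. Over all genes 10 of 36 best matches fell on the own number. The labels do not say whether libraries of equal number share an animal. Of 3059 values for the log2 fold changes of 153 named genes 47 lost a call, 7 gained one and 25 turned sign, the last all where a type or a library was left out. With alveolar macrophages left out the log2 fold change was -0.356 for Slc9a9, 0.041 for Sec16a, 0.025 for Cd68, -0.478 for Cd86, 0.147 for Spi1, 0.843 for Tnf and 0.266 for Tyms. Without Kupffer cells it was 0 for Dock1 and -0.027 for Tgfb1, and without splenic macrophages -0.006 for Lars2, 0.03 for Cd68, 0.131 for Nrros, 0.203 for Slc40a1 and 0.075 for Zeb2. Of these only Cd86, Nrros and Slc40a1 were called in the reported fit, and each follows from 1 type leaving the mean. With single libraries left out the range was -0.773 to 0.528 for Lars2, -0.684 to 0.13 for Dock1, -0.42 to 0.361 for Sec16a, -0.242 to 0.558 for Ints1, -0.235 to 0.068 for Cd68, -0.164 to 0.067 for Spi1, -0.409 to 0.424 for Tnf and -0.29 to 0.196 for Zeb2, none of them called in the reported fit. In a check chosen after seeing the data, leaving out microglia library 2 moved the calls of 3 lists by over 1.5 times: astrocyte markers higher from 1 to 0, dendritic cell markers higher from 2 to 1 and erythroid markers lower from 5 to 3. The cause of these changes was not tested. With 3 libraries a type, precision is limited by the spread between libraries rather than by depth, except for genes of a few reads.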

Other observations

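The endosomal sodium-proton exchanger gene Slc9a9 and the adaptor gene Card9 were picked out after their spread among microglia was seen. Each had its lowest or highest value in library 2 of all 4 types, of which microglia served to pick them. Slc9a9 was lowest in library 2 of each type: 30.7 CPM against 122 and 111 in microglia, 2.01 against 23.5 and 19.1 in alveolar macrophages, 57.2 against 149 and 150 in Kupffer cells, and 53.0 against 146 and 162 in splenic macrophages. Card9 was highest in library 2 of each type: 179 CPM against 40.1 and 113 in microglia, 134 against 31.7 and 97.0 in alveolar macrophages, 36.0 against 14.1 and 15.1 in Kupffer cells, and 3.31 against 0.628 and 0.391 in splenic macrophages. Card9 at 113 CPM in microglia lay closer to 179 than to 40.1, and at 97.0 in alveolar macrophages closer to 134 than to 31.7. Library 2 was therefore not set apart from both other libraries in those types. Over all genes the libraries with the same number did not deviate together. Whether they share an animal or background is not given in the labels and was not tested.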
